A study of Arabidopsis thaliana with 12 samples.

Results

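The comparison set 3 libraries labelled rdd and regular soil against 3 libraries labelled Col-0 and soil with YC4-R4, 6 of the 12 libraries of the series. They were chosen by their column names in the deposited count table, and no measured value entered the choice. The study sequenced messenger RNA from whole Arabidopsis thaliana plants that were 2 weeks old, in 4 groups of 3 libraries that the series design calls biological replicates. Col-0 is the reference accession of Arabidopsis, and rdd carries mutations in ROS1, DML2 and DML3, which encode DNA demethylases. The regular soil carried no named addition, the labels do not define YC4-R4, and the series title speaks of beneficial rhizobacteria and of myo-inositol. The remaining groups were Col-0 in regular soil and rdd in soil with YC4-R4. Differences below are given as rdd regular minus Col-0 YC4-R4, so a positive value is a higher level in the libraries labelled rdd regular. Genotype and soil differ together between these groups and cannot be told apart within this comparison.

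ROS1, DML2, DML3 and their relative DME are DNA glycosylases that remove methylated cytosine from DNA, and they counteract silencing by DNA methylation at gene promoters and transposons. Bacteria in the root zone change the hormone, defence and nutrient state of the whole plant. Myo-inositol is a cyclic sugar alcohol made from glucose phosphate, and it feeds galactinol, phosphoinositides and, through myo-inositol oxygenase, cell wall sugars.

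The 6 libraries held 14465710 to 19251502 gene counts each, and tests covered 20651 genes. The biological coefficient of variation, the spread between replicates beyond counting noise, was 3.22% in the rdd regular libraries and 2.57% in the Col-0 YC4-R4 libraries. Genes of the organelles took 0.994% to 1.17% of the counts. The p-values measure a difference against a spread within groups that was estimated from all 12 libraries in 1 fit. In the other groups that spread was 3.05% for Col-0 regular and 5.84% for rdd YC4-R4. Growth or harvest conditions common to 1 group were not tested apart from genotype or soil. In whole plants, fewer cells of a type and less RNA per cell cannot be told apart either. The labels name a single rdd mutant and give whole plants, so organs are mixed in every library. Levels are CPM, read counts scaled to a common library size by edgeR's TMM factors, and errors after a log2 difference are standard errors.

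The 3 mutated genes went against the genotype labels in this comparison: each was higher in the libraries labelled rdd regular than in those labelled Col-0 YC4-R4. DML3 was at 3.41, 3.67 and 3.47 CPM in the rdd regular libraries and at 1.07, 0.937 and 0.316 CPM in the Col-0 YC4-R4 libraries. The groups did not overlap, and the log2 difference was 2.14 ± 0.28 (edgeR, Benjamini-Hochberg adjusted p = 1.2e-07). DML2 was at 22.8, 18.6 and 20.7 CPM against 11.5, 13.4 and 14.2 CPM, a log2 difference of 0.67 ± 0.09 (edgeR, Benjamini-Hochberg adjusted p = 1e-07). ROS1 was at 81.3, 77.3 and 81.1 CPM against 68.2, 69.1 and 71.3 CPM, a log2 difference of 0.20 ± 0.05 (edgeR, Benjamini-Hochberg adjusted p = 0.00072). In the other libraries, DML3 was at 4.50, 5.89 and 4.53 CPM in those labelled Col-0 regular and at 0.953, 0.267 and 0.577 CPM in those labelled rdd YC4-R4. In rdd YC4-R4 minus Col-0 regular the log2 differences were -3.07 ± 0.28 for DML3, -0.56 ± 0.09 for DML2 and -0.14 ± 0.05 for ROS1, each called lower, which is the direction of the genotype label there. DML2 was at 19.6 to 20.4 CPM in the Col-0 regular libraries and 13.0 to 13.9 CPM in the rdd YC4-R4 libraries, and ROS1 at 78.3 to 86.1 CPM and 72.7 to 76.1 CPM. DML3 was thus high in the 6 libraries labelled regular and low in the 6 labelled YC4-R4, whatever their genotype label. DME, which is intact in rdd, was also higher in the rdd regular libraries, with a log2 difference of 0.23 ± 0.05 (edgeR, Benjamini-Hochberg adjusted p = 0.00038). Every direction below therefore rests on labels that the mutated genes did not follow in this comparison. That reading takes the rdd mutations to lower the counts of these genes, which was not tested. Whether the labels match the plants was not tested, so following the soil label below describes labels, not an effect of YC4-R4.

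Many small differences and fewer large ones separated the groups. In total 7645 genes, 37.0% of those tested, were called at an edgeR Benjamini-Hochberg adjusted p under 0.05. Of these, 3864 (18.7%) were higher in the rdd regular libraries and 3781 (18.3%) were lower. The median size of a called difference was 0.35 on the log2 scale, and the median over all tested genes was -0.00. In all 780 genes (3.78%) were called and differed at least 2-fold, 484 higher (2.34%) and 296 lower (1.43%). The 3 libraries of one group lay wholly above or below those of the other for 9833 genes (47.6%), and 7324 of these were called.

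Several loci were near absent in one group and expressed in the other. Of the 15 genes with the highest differences, 14 were called with the opposite sign in the other 6 libraries. Such genes are described here as following the soil label. The opposite sign was also called for 36.2% of the 484 genes called and 2-fold higher. Of all tested genes 21.0% were called lower in rdd YC4-R4 minus Col-0 regular. AT4G17450, an annotated pseudogene on chromosome 4 (9732817 to 9737316, minus strand, TAIR10.1), was at 14.7, 13.2 and 15.4 CPM in the rdd regular libraries and had no count in the 3 Col-0 YC4-R4 libraries. Its 746 counts over the rdd regular group put it at least 246-fold higher, taking 3 counts over the Col-0 YC4-R4 group as the floor. It was at 14.5, 13.9 and 14.2 CPM in the Col-0 regular libraries, and at 0, 0 and 0.0481 CPM in the rdd YC4-R4 libraries.

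MRD1, annotated as mto 1 responding down 1, was at 45.5, 46.1 and 47.9 CPM against 0.0511, 0.4999 and 0.190 CPM. Its log2 difference was 7.60 ± 0.16, and it overlaps AT1G53490, another tested gene, so its reads are uncertain. CRK40, a cysteine-rich receptor-like kinase, was at 64.5, 67.8 and 64.9 CPM against 2.197, 1.75 and 2.28 CPM, with a log2 difference of 4.98 ± 0.10. QQS, a starch regulator without relatives outside Arabidopsis thaliana, was at 3.89, 5.14 and 4.19 CPM against 0.255, 0.250 and 0.126 CPM. Its log2 difference was 4.33 ± 0.33. All 3 genes had Col-0 regular libraries at the high end and rdd YC4-R4 libraries at the low end.

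The other genes among the 15 with the highest differences were AT2G33830, AT3G47965, AT5G39120, AT1G08940, ACS11, AT4G36850, AT2G15042, the noncoding RNA AT2G45245, AT3G21400, AT4G07820 and AT5G26270. AT4G36850, a predicted transmembrane protein, stood apart from the soil-labelled pattern. It was at 74.3, 74.5 and 75.6 CPM against 5.67, 7.06 and 5.63 CPM, while the Col-0 regular and rdd YC4-R4 libraries all lay between 19.7 and 22.8 CPM. Its log2 difference was 3.62 ± 0.07, and in rdd YC4-R4 minus Col-0 regular it was -0.13 ± 0.07 (edgeR, Benjamini-Hochberg adjusted p = 0.14).

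At the other end, CSLA01, a cellulose synthase-like enzyme of mannan synthesis, had the lowest difference. It was at 1.09, 0.787 and 1.21 CPM against 21.9, 20.7 and 22.6 CPM, a log2 difference of -4.40 ± 0.14. The Col-0 regular libraries lay between 4.71 and 5.63 CPM and the rdd YC4-R4 libraries between 10.04 and 11.4 CPM, so all 4 groups were apart. The pseudogene AT5G35935 was at 1.16, 1.47 and 0.826 CPM against 18.9, 23.3 and 19.1 CPM, with a log2 difference of -4.13 ± 0.17. CPK22, a calcium-dependent protein kinase, was at 0.273, 0.734 and 0.936 CPM against 10.1, 8.44 and 10.7 CPM, with a log2 difference of -3.84 ± 0.21. Both, and the pseudogene AT4G04410 with a log2 difference of -2.16 ± 0.08, were low in both groups labelled regular and high in both labelled YC4-R4. In the other 6 libraries 8 of the 15 lowest genes were called with the opposite sign, beside 19.9% of the 296 genes called and 2-fold lower. Of all tested genes 18.5% were called higher in rdd YC4-R4 minus Col-0 regular.

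The rest of the 15 lowest included AOP2, a side-chain gene of glucosinolate synthesis that the annotation lists as a transcribed pseudogene. AOP2 was at 7.37, 6.61 and 7.65 CPM against 40.8, 40.4 and 37.9 CPM, a log2 difference of -2.46 ± 0.09. CYP707A2, which breaks down abscisic acid, had a log2 difference of -2.26 ± 0.20. BAM5, a beta-amylase, had one of -2.08 ± 0.16, and the asparaginase ASPGB1 one of -2.25 ± 0.17. The pathogenesis gene PR2 is described with the salicylic acid genes. AT2G16367, AT2G30766, the transporter UMAMIT36, AT3G59250, AT5G66740 and AT3G28270 completed the list. Among these 30 genes 3 overlap another tested gene, and the largest edgeR Benjamini-Hochberg adjusted p was 2.2e-09.

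**Figure D1:**
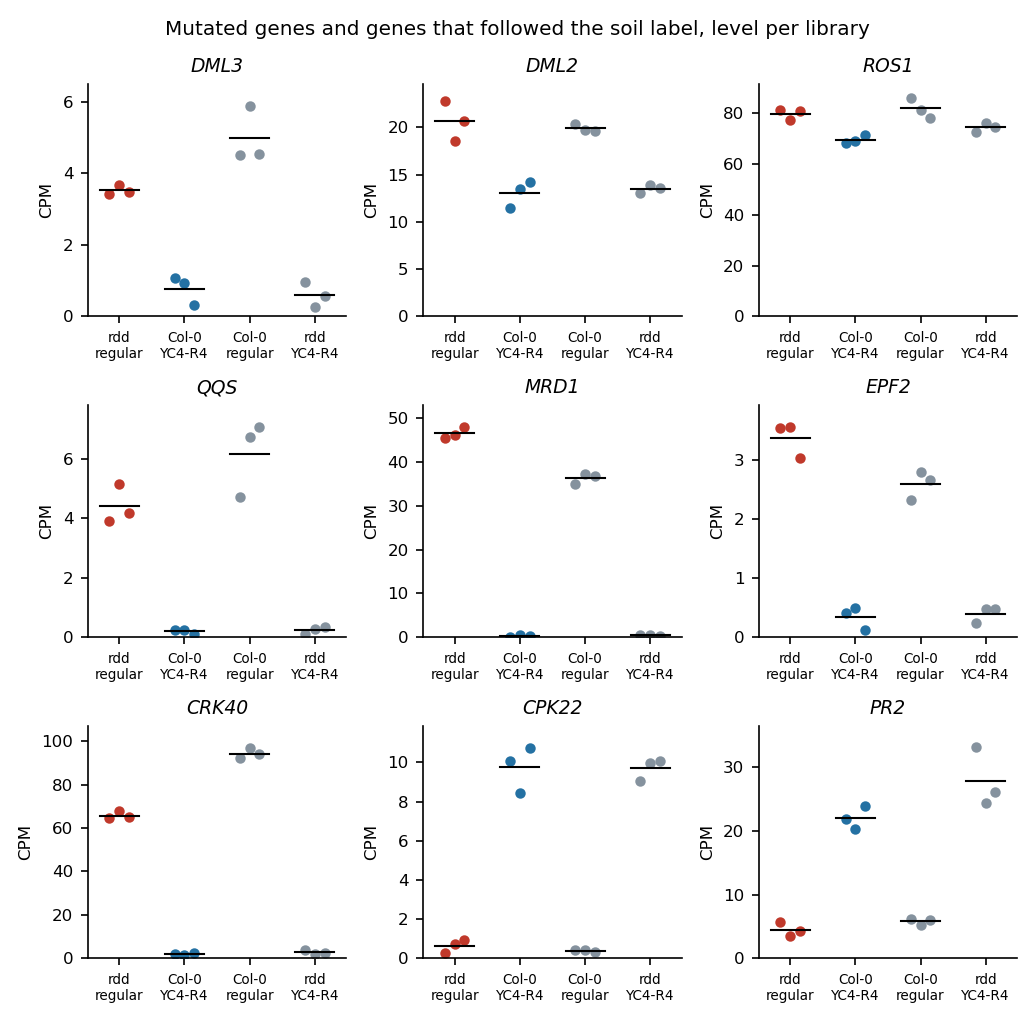
Level in CPM (vertical axes, linear from 0) of the mutated genes DML3, DML2 and ROS1 and of 6 other genes in each of the 12 libraries, by labelled group; points are libraries and bars are group means. DML3, QQS, MRD1, EPF2 and CRK40 were high in both groups labelled regular and low in both labelled YC4-R4, and CPK22 and PR2 were the other way round.

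Genes of the response to carbon shortage were higher in the rdd regular libraries. These genes are induced in darkness and sugar starvation, when the plant turns to amino acids and stored sugars for fuel. Like every list here, theirs was chosen with earlier results of these data known, so its count is a description. All 12 tested members of this list were called higher, beside 18.7% of all tested genes, with a median log2 difference of 1.36 beside -0.00 for all tested genes. Their summed level was 5183 to 5313 CPM in the rdd regular libraries and 1759 to 1784 CPM in the Col-0 YC4-R4 libraries. It was 2380 to 2423 CPM in the Col-0 regular libraries and 2629 to 2701 CPM in the rdd YC4-R4 libraries, so the rdd regular libraries were the highest and the Col-0 YC4-R4 libraries the lowest of the 4 groups.

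SEN1, a dark-induced and senescence-associated gene, was at 169, 171 and 187 CPM in the rdd regular libraries against 27.6, 27.7 and 29.5 CPM in the Col-0 YC4-R4 libraries, a log2 difference of 2.64 ± 0.05 (edgeR, Benjamini-Hochberg adjusted p = 8.7e-30). Asparagine synthetase ASN1, which stores nitrogen in asparagine when carbon is short, was at 324, 332 and 353 CPM against 81.3, 82.4 and 87.6 CPM, a log2 difference of 2.01 ± 0.04. DIN10, a raffinose synthase family gene, was at 2705, 2552 and 2639 CPM against 918, 928 and 904 CPM, a log2 difference of 1.52 ± 0.03. DIN10 alone made the largest part of the summed level of the list in both groups. For each of SEN1, ASN1 and DIN10 every rdd regular library exceeded all 9 others.

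BCAT2, an aminotransferase of branched-chain amino acid breakdown, was at 14.8, 18.6 and 18.4 CPM against 2.91, 2.75 and 3.54 CPM, a log2 difference of 2.50 ± 0.13. It overlaps AT1G10090, another tested gene. The dormancy-associated gene DRM1 had a log2 difference of 1.47 ± 0.04, and its relative AT2G33830 was at 712, 748 and 736 CPM against 27.8, 30.5 and 28.4 CPM. AT2G33830 had the smallest adjusted p of the list, with a log2 difference of 4.67 ± 0.06 (edgeR, Benjamini-Hochberg adjusted p = 1.7e-35). Unlike SEN1, it followed the soil label, at 398, 396 and 403 CPM in the Col-0 regular libraries and 53.0 to 72.1 CPM in the rdd YC4-R4 libraries.

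The remaining members had smaller differences. They were the beta-glucosidase BGLU30 (1.25 ± 0.30), glutamate dehydrogenase GDH1 (0.68 ± 0.05), the trehalose phosphate synthase-like genes TPS8 (0.48 ± 0.04), TPS9 (0.83 ± 0.04) and TPS10 (0.90 ± 0.04), and EXL2 (0.41 ± 0.04). ERD5, the proline dehydrogenase that breaks proline down for energy, is no member of the list and was named after its values were seen. It was at 577, 577 and 572 CPM against 114, 116 and 111 CPM, a log2 difference of 2.34 ± 0.04 (edgeR, Benjamini-Hochberg adjusted p = 1.2e-33). P5CS1, the first enzyme of proline synthesis, was lower, with a log2 difference of -0.91 ± 0.04.

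In the myo-inositol and galactinol list, MIOX2 and MIOX4 were higher in the rdd regular libraries, and MIPS1, MIPS2 and the galactinol synthases were lower. Of 18 tested members 5 were called higher, 9 lower and 4 not at all, 77.8% called beside 37.0% of all tested genes. The median log2 difference was -0.22 beside -0.00 for all tested genes. MIOX2, a myo-inositol oxygenase, was at 87.3, 89.3 and 82.1 CPM against 25.03, 23.6 and 22.6 CPM, a log2 difference of 1.86 ± 0.06 (edgeR, Benjamini-Hochberg adjusted p = 7e-24). MIOX4 was at 3.07, 2.05 and 2.59 CPM against 0.562, 0.687 and 0.316 CPM, a log2 difference of 2.26 ± 0.33.

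MIPS1, MIPS2 and MIPS3 encode myo-inositol phosphate synthase, which makes the ring from glucose phosphate. MIPS1 was at 104, 104 and 110 CPM against 153, 156 and 155 CPM, a log2 difference of -0.54 ± 0.04 (edgeR, Benjamini-Hochberg adjusted p = 1.1e-13). MIPS2 was at 17.7, 14.3 and 16.0 CPM against 26.7, 25.2 and 29.5 CPM, with a log2 difference of -0.77 ± 0.08, and it overlaps AT2G22230. MIPS3, which overlaps AT5G10160, was at 52.4, 44.5 and 45.0 CPM against 41.1, 43.4 and 44.8 CPM, so its groups overlapped (log2 difference 0.13 ± 0.06, edgeR, Benjamini-Hochberg adjusted p = 0.076). The phosphatase gene VTC4, which releases free myo-inositol and also serves ascorbate synthesis, was lower by -0.68 ± 0.07 on the log2 scale.

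The 4 tested galactinol synthases, which join myo-inositol to galactose as the first step towards raffinose, were all called lower. GOLS2 was at 1.64, 2.098 and 1.76 CPM against 5.67, 5.94 and 5.06 CPM, a log2 difference of -1.59 ± 0.18. GOLS1 was at 11.2, 10.9 and 11.1 CPM against 21.3, 17.2 and 15.7 CPM, a log2 difference of -0.72 ± 0.10, and GOLS1 overlaps AT2G47170. GOLS3 (-1.38 ± 0.38) and GOLS4 (-0.98 ± 0.18) had 5 CPM or less in every one of the 6 libraries. Of the transporters, INT1 (0.22 ± 0.06) and INT4 (0.27 ± 0.07), which move myo-inositol across the vacuolar and plasma membranes, were higher.

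**Figure D2:**
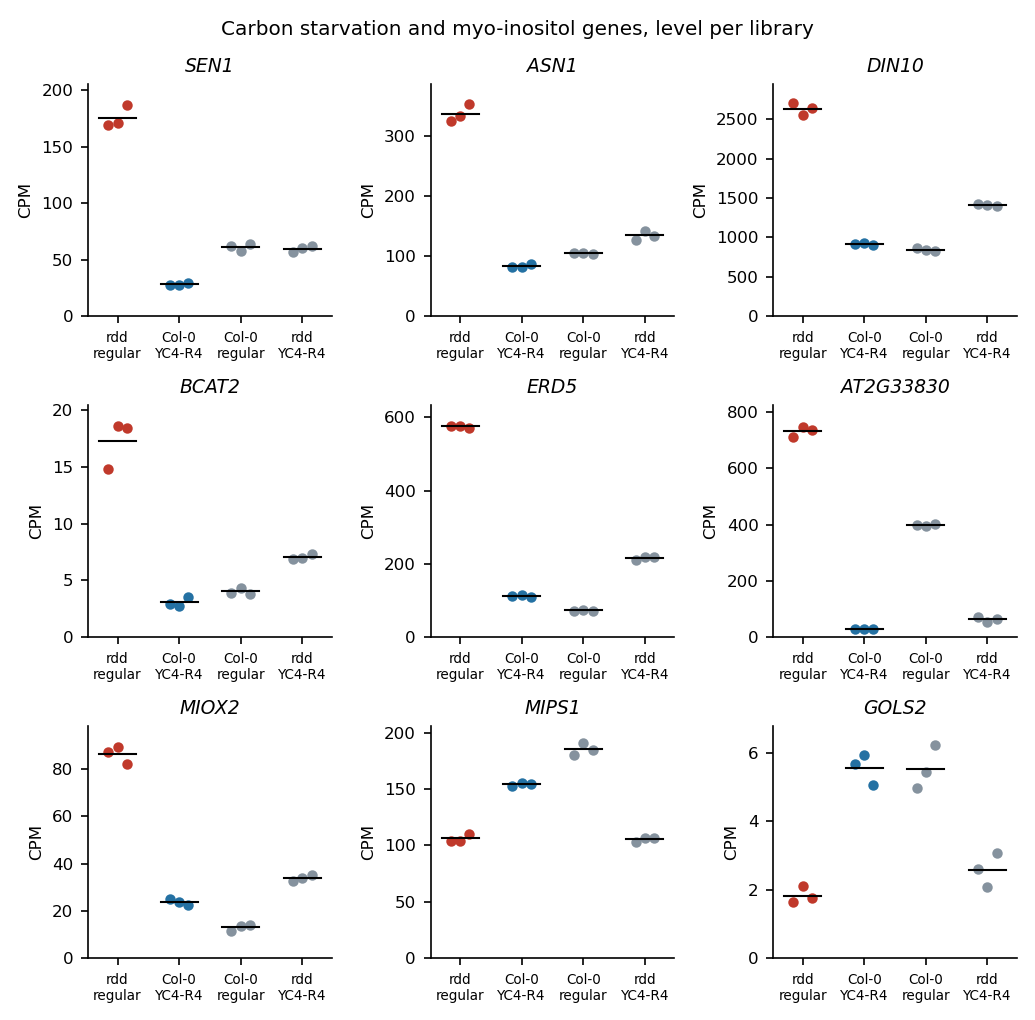
Level in CPM (vertical axes, linear from 0) of carbon starvation and myo-inositol genes in each of the 12 libraries, by labelled group; points are libraries and bars are group means. SEN1, ASN1, DIN10, BCAT2, ERD5 and MIOX2 were highest in the 3 libraries labelled rdd regular, and MIPS1 and GOLS2 were lower there than in those labelled Col-0 YC4-R4.

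The 250 bases before the annotated start of MIPS1, MIPS2, GOLS1 and ASN1 are shown because each holds a G-box, the hexamer CACGTG read by bZIP and bHLH factors, and because the first 3 genes were lower and the last higher in the rdd regular libraries. They were read from the TAIR10.1 genome of RefSeq with its gene annotation, on the gene's own strand, 5′ to 3′, with the G-box in capitals. CACGTG is its own reverse complement, so both strands were searched at once. The windows are chr4:18472049-18472298 for MIPS1, chr2:9454301-9454550 for MIPS2, chr2:19370479-19370728 for GOLS1 and chr3:17441432-17441681 for ASN1, all on the minus strand. The MIPS2 window overlaps the annotated gene AT2G22241, and the ASN1 window overlaps AT3G47341.
MIPS1: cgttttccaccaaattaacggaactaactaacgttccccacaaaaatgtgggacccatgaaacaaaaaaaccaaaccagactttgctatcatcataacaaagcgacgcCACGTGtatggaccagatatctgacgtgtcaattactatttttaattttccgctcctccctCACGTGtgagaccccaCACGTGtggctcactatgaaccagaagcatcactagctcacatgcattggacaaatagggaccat
MIPS2: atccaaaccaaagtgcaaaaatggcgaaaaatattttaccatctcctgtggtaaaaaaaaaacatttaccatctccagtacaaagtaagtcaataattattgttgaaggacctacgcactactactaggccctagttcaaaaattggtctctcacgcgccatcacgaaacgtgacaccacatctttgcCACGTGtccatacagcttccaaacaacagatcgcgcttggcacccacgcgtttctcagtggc
GOLS1: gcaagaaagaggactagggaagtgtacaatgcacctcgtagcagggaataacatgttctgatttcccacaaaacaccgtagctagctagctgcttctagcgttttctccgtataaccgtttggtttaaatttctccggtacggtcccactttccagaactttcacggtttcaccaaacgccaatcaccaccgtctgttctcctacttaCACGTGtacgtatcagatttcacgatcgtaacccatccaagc
ASN1: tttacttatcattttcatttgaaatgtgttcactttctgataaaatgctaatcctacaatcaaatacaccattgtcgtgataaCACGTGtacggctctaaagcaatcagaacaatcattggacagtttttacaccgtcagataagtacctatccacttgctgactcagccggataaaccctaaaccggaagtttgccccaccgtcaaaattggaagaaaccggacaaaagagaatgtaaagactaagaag
The MIPS1 window held 3 G-boxes, whose first bases lay 65, 81 and 142 bases before the start. MIPS2 held 1 at 62 bases, GOLS1 1 at 42 bases and ASN1 1 at 167 bases before the start. Of the 18 tested members of the myo-inositol and galactinol list, 6 (33.3%) had a G-box in this window, beside 7.29% of 19922 windows of tested protein-coding genes. This share is not particular to that list. Shares per list ran from 0% in the ethylene list to 50% (4 of 8) in the morning clock list. The JAZ repressors had 33.3% (4 of 12), and the carbon starvation list, which holds ASN1, had 16.7% (2 of 12). The share was 9.66% for genes called lower and 7.57% for genes called higher. These counts describe letters in a window, and no factor was measured there.

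Jasmonate synthesis genes were more often called lower than higher in the rdd regular libraries. Jasmonate is the wound and defence hormone made from chloroplast lipids by lipoxygenases, AOS, AOC and OPR3. Of 14 tested members 9 were called lower and 1 higher, 71.4% called beside 37.0% of all tested genes, with a median log2 difference of -0.70. LOX2, the main leaf lipoxygenase of the pathway, was at 518, 494 and 514 CPM against 1291, 1270 and 1302 CPM, a log2 difference of -1.34 ± 0.04 (edgeR, Benjamini-Hochberg adjusted p = 4.5e-26). AOS was at 194, 190 and 190 CPM against 353, 364 and 356 CPM, a log2 difference of -0.90 ± 0.04. AOC2 was at 164, 154 and 153 CPM against 359, 361 and 342 CPM (-1.17 ± 0.04), and reads may be shared with its close copy AOC1 (-0.98 ± 0.05). LOX3 (-1.07 ± 0.05), LOX4 (-1.16 ± 0.05), OPR3 (-0.77 ± 0.04), OPCL1 (-0.64 ± 0.05) and the conjugating enzyme JAR1 (-0.24 ± 0.05) were also lower. LOX6 was the 1 member called higher, by 0.16 ± 0.05, a call lost without rdd regular library 3 or Col-0 YC4-R4 library 2.

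Among the outputs of the MYC branch, CORI3 was at 37.6, 34.8 and 32.0 CPM against 124, 128 and 119 CPM, a log2 difference of -1.83 ± 0.05 (edgeR, Benjamini-Hochberg adjusted p = 1.5e-25). The vegetative storage proteins VSP1 (-1.27 ± 0.08) and VSP2 (-0.995 ± 0.04), and the aminotransferase TAT3 (-1.04 ± 0.11) were lower as well. MYC2 itself, the leading transcription factor of this branch, was at -0.11 ± 0.06 (edgeR, Benjamini-Hochberg adjusted p = 0.13). In the ethylene-linked branch, the factor ORA59 was at 7.78, 6.35 and 8.04 CPM against 2.55, 2.75 and 3.67 CPM, a log2 difference of 1.31 ± 0.16. The chitin-binding protein gene HEL, an output of this branch, was not called (0.09 ± 0.08). The outputs list held 13 tested members, of which 3 were called higher and 6 lower, with a median of -0.11. That is 69.2% called beside 37.0% of all tested genes.

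The enzymes that inactivate jasmonoyl-isoleucine went both ways. CYP94B3 was at 5.94, 6.82 and 6.22 CPM against 16.5, 16.6 and 15.2 CPM (-1.34 ± 0.10), and CYP94B1 differed by -1.38 ± 0.14. CYP94C1 was higher, at 53.2, 48.5 and 46.9 CPM against 39.9, 42.3 and 41.3 CPM (0.26 ± 0.06). The amidohydrolase ILL6 was lower by -0.28 ± 0.06, and in all 1 of 6 tested members was called higher and 3 lower, 66.7% called, with a median of -0.28. Of 12 JAZ repressors, 2 were called higher and 4 lower, with a median of -0.08, 50% called beside 37.0% of all tested genes. Without Col-0 YC4-R4 library 1, 2 were called lower. JAZ7 (-0.71 ± 0.10) and JAZ10 (-0.46 ± 0.08) were lower and JAZ1 higher (0.24 ± 0.05).

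Glucosinolate genes were lower in the rdd regular libraries, in both the aliphatic and the indole branch. Glucosinolates are sulfur-rich defence compounds made from methionine or tryptophan. In the aliphatic list 12 of 15 tested members were called lower and 1 higher, 86.7% called beside 37.0% of all tested genes, with a median log2 difference of -0.78. MYB29, a transcription factor of the branch, was at 8.19, 7.87 and 8.32 CPM against 22.6, 25.1 and 24.7 CPM, a log2 difference of -1.57 ± 0.10 (edgeR, Benjamini-Hochberg adjusted p = 8.6e-16). MYB28, the other leading factor, was at 32.5, 38.0 and 31.9 CPM against 37.4, 35.9 and 40.6 CPM, and its groups overlapped (-0.15 ± 0.07, edgeR, Benjamini-Hochberg adjusted p = 0.086). The core enzyme CYP83A1 was at 183, 182 and 183 CPM against 318, 305 and 314 CPM (-0.78 ± 0.04).

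The chain-elongating MAM1 (-0.72 ± 0.04), the sulfotransferases SOT17 (-1.02 ± 0.05) and SOT18 (-0.91 ± 0.05), and FMOGS-OX1, which oxidises the side chain (-1.37 ± 0.07), were lower too. The 2 neighbouring genes of the first core step went opposite ways, with CYP79F1 at -0.72 ± 0.04 and CYP79F2 at 0.45 ± 0.07. These are close copies that may share reads. In the indole and camalexin list 7 of 10 tested members were called lower and 2 higher, 90.0% called beside 37.0% of all tested genes (median -0.58). SOT16 (-0.78 ± 0.04), SUR1 (-0.74 ± 0.04), CYP83B1 (-0.51 ± 0.04) and the factor MYB34 (-0.78 ± 0.06) were lower. The 2 members called higher were camalexin genes, PAD3 (0.72 ± 0.16) and CYP71A13 (1.94 ± 0.53). CYP71A13 was below 1 CPM in all 6 libraries and overlaps AT2G30766, which was lower.

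Genes induced by sulfur shortage were lower as well, 10 of 11 tested members beside 18.3% of all tested genes, with none called higher and a median log2 difference of -0.67. LSU2, a small protein that marks low sulfur, was at 2.93, 2.94 and 4.02 CPM against 11.1, 10.8 and 11.9 CPM, a log2 difference of -1.76 ± 0.13 (edgeR, Benjamini-Hochberg adjusted p = 1.3e-13). APR1, the sulfate-reducing enzyme, was at 72.2, 68.6 and 67.1 CPM against 110, 112 and 108 CPM (-0.67 ± 0.04), and it overlaps AT4G04614. SDI1, a repressor of glucosinolate synthesis under low sulfur, differed by -1.15 ± 0.17, and LSU1 by -1.35 ± 0.25. The root sulfate transporter SULTR1;1 was at -0.34 ± 0.40 and was not called (edgeR, Benjamini-Hochberg adjusted p = 0.55).

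**Figure D3:**
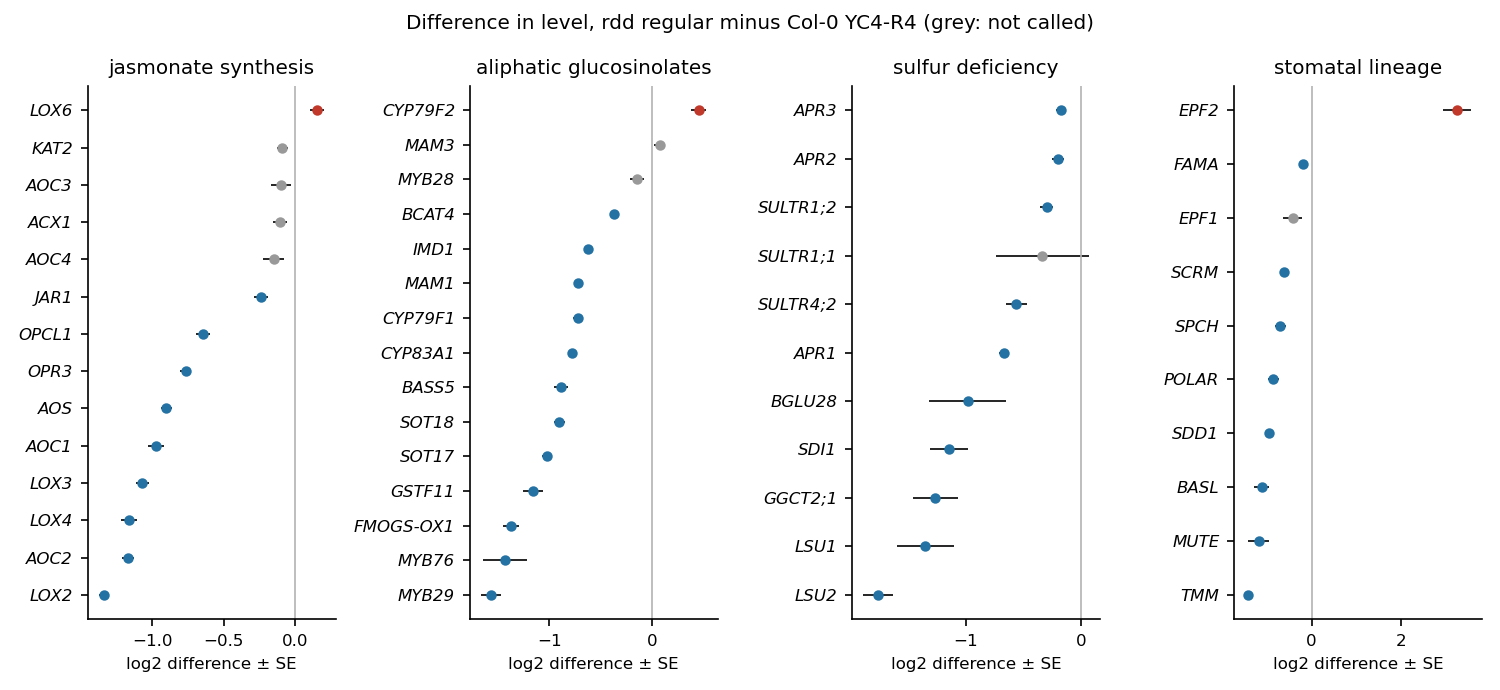
Log2 difference in level (horizontal axes, rdd regular minus Col-0 YC4-R4) of each tested member of 4 gene lists, with its standard error as a bar; red and blue points were called and grey points were not. All but 1 called member of each of the jasmonate synthesis, aliphatic glucosinolate and stomatal lineage lists were lower, and all 10 called members of the sulfur deficiency list were lower.

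Stomatal lineage genes divided into EPF2 on one side and the rest on the other. EPF2 is a secreted peptide that restrains entry into the lineage, and its promoter is a known target of active demethylation. EPF2 was at 3.55, 3.57 and 3.03 CPM against 0.409, 0.4999 and 0.126 CPM, a log2 difference of 3.24 ± 0.31 (edgeR, Benjamini-Hochberg adjusted p = 8.6e-11). TMM, a receptor of the lineage, was at 17.399, 16.2 and 16.3 CPM against 44.7, 46.2 and 42.0 CPM, a log2 difference of -1.42 ± 0.07 (edgeR, Benjamini-Hochberg adjusted p = 4.1e-19). SCRM, a bHLH factor of the lineage, was at 43.4, 42.3 and 46.3 CPM against 67.8, 67.8 and 66.3 CPM (-0.61 ± 0.05).

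The factors SPCH (-0.70 ± 0.13) and MUTE (-1.19 ± 0.24), which act in turn along the lineage, were lower. So were the polarity genes BASL (-1.11 ± 0.17) and POLAR (-0.86 ± 0.13) and the protease SDD1 (-0.95 ± 0.09). In all 8 of 10 tested members were called lower and 1 higher, 90.0% beside 37.0% of all tested genes, and EPF1 was not called (-0.42 ± 0.21). In rdd YC4-R4 minus Col-0 regular, the same 8 genes were higher and EPF2 lower, for example 1.77 ± 0.07 for TMM and -2.65 ± 0.30 for EPF2. All 9 called genes thus followed the soil label, as DML3 did, and whether the labels match the plants was not tested.

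Among salicylic acid genes, 12 of 24 tested members were called lower, 3 were called higher and 9 were not called, 62.5% called beside 37.0% of all tested genes. The median log2 difference was -0.25. PR2, a secreted glucanase, was at 5.66, 3.51 and 4.35 CPM against 21.9, 20.2 and 23.9 CPM, a log2 difference of -2.31 ± 0.13 (edgeR, Benjamini-Hochberg adjusted p = 6.1e-17). PR5 was at 4.23, 4.56 and 4.13 CPM against 12.3, 12.1 and 11.3 CPM (-1.46 ± 0.13). PR1, the classical marker of the pathway, was below 1 CPM in all 6 libraries, and its groups overlapped (0.59 ± 0.42, edgeR, Benjamini-Hochberg adjusted p = 0.29).

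ICS1, which makes most pathogen-induced salicylic acid, was not called (-0.16 ± 0.10), whereas PBS3, the enzyme acting after it, was lower (-1.11 ± 0.18). ALD1 (-1.68 ± 0.34) and FMO1 (-0.92 ± 0.20), which make the systemic signal N-hydroxypipecolic acid, and EDS1 (-0.41 ± 0.06) were lower. ACD6, an ankyrin protein that promotes defence, was at 166, 145 and 147 CPM against 87.2, 87.1 and 87.2 CPM, a log2 difference of 0.81 ± 0.04 (edgeR, Benjamini-Hochberg adjusted p = 3.8e-17). The receptor genes NPR1 (0.28 ± 0.05) and NPR3 (0.27 ± 0.05) were also higher.

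Genes of pattern-triggered immunity and of the quick response to touch and wounds were more often called higher than lower. Of 19 tested immunity members 9 were called higher and 4 lower, 68.4% called beside 37.0% of all tested genes, with a median of 0.23. The flagellin receptor FLS2 was at 78.5, 79.2 and 82.7 CPM against 54.2, 57.4 and 54.4 CPM (0.54 ± 0.05), and it overlaps AT5G46340. WRKY40 (0.78 ± 0.07), WRKY33 (0.59 ± 0.08) and MYB51 (0.58 ± 0.08), transcription factors of the response, were higher, and the first 2 of these overlap another tested gene. PHI1 (-0.55 ± 0.05), the oxidase gene RBOHD (-0.47 ± 0.05), WRKY11 (-0.49 ± 0.05) and the kinase MPK3 (-0.19 ± 0.04) were lower.

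Of 12 touch and wounding members 8 were called higher and 3 lower, 91.7% called beside 37.0% of all tested genes, with a median of 0.50. ERF104 was at 55.8, 56.3 and 62.3 CPM against 28.9, 25.9 and 29.1 CPM (1.06 ± 0.06), and the calmodulin-like TCH3 differed by 0.57 ± 0.04. MYB44 was lower by -0.67 ± 0.05, as were TCH2 (-0.49 ± 0.05) and TCH4 (-0.35 ± 0.04). The summed level of the list was 1356 to 1428 CPM in the rdd regular libraries and 1223 to 1248 CPM in the Col-0 YC4-R4 libraries. Both lay between the Col-0 regular libraries, at 2895 to 2955 CPM, and the rdd YC4-R4 libraries, at 589 to 650 CPM. These genes respond within minutes to handling, and the part of harvest in these differences was not tested.

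Of 15 tested ethylene genes 9 were called higher and none lower, 60% called beside 37.0% of all tested genes, with a median log2 difference of 0.30. Without rdd regular library 1, 1 was called lower. EBF2, an F-box protein that ethylene signalling induces and that removes EIN3, was at 231, 224 and 228 CPM against 147, 147 and 139 CPM, a log2 difference of 0.66 ± 0.04 (edgeR, Benjamini-Hochberg adjusted p = 7.2e-17). The receptor genes ERS1 (0.46 ± 0.05) and ETR2 (0.54 ± 0.13) were higher. ACS11, an enzyme of ethylene synthesis, was at 4.71, 6.09 and 5.62 CPM against 0.409, 0.562 and 0.316 CPM (3.67 ± 0.24) and followed the soil label.

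Of 18 tested abscisic acid, drought and cold genes 5 were called higher, 8 lower and 5 not at all, with a median of -0.17. That is 72.2% called beside 37.0% of all tested genes. The receptor genes PYL4 (0.77 ± 0.04), PYL5 (1.03 ± 0.05) and PYL6 (1.35 ± 0.10) were higher. PYL5 was at 113, 107 and 103 CPM against 53.9, 51.7 and 51.5 CPM. The phosphatases ABI2 (-0.89 ± 0.12) and HAB1 (-0.27 ± 0.06), which the receptors inhibit, were lower, and so were the protective protein genes COR15A, RAB18 and RD29A. COR15A was at 23.3, 24.7 and 25.8 CPM against 65.4, 62.8 and 67.8 CPM (-1.41 ± 0.06), with RAB18 at -1.19 ± 0.11 and RD29A at -0.54 ± 0.05. P5CS1 and RAB18 overlap another tested gene.

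Of 10 tested heat shock genes 3 were called higher and 3 lower, 60% called beside 37.0% of all tested genes, with a median of -0.38. The chaperones HSP70 (-1.04 ± 0.08) and HSP90-1 (-0.78 ± 0.07) were lower and the factor HSFA7A (1.301 ± 0.12) was higher. HSP70 was at 15.2, 13.95 and 12.005 CPM against 27.6, 28.7 and 27.7 CPM. Flavonoid genes were called lower in 8 of 13 tested members and higher in 1, 69.2% called, with a median of -0.37. Chalcone synthase CHS was at 18.4, 19.1 and 21.3 CPM against 35.0, 35.9 and 37.9 CPM (-0.88 ± 0.07). FLS1 (-0.97 ± 0.11), F3H (-0.81 ± 0.13) and the anthocyanin factor PAP1 (-1.83 ± 0.31) were also lower.

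Photosynthesis genes differed little. Of 35 tested members 2 were called higher and 11 lower, 37.1% of the list beside 37.0% of all tested genes, with a median of -0.05 and a range from -0.32 to 0.29. PSBS, the protein of energy dissipation, was at 896, 916 and 933 CPM against 1121, 1150 and 1164 CPM, a log2 difference of -0.32 ± 0.03 (edgeR, Benjamini-Hochberg adjusted p = 1.3e-09). LHCB1.4 (0.29 ± 0.04) and RBCS3B (-0.20 ± 0.04) belong to families of close copies that may share reads. The 10 called genes with the highest mean level were photosynthesis genes and a myrosinase: LHCB1.3, RBCS1A, LHB1B2, RBCS3B, RCA, plastocyanin DRT112, LHCB1.4, LHCB3, the myrosinase TGG1 and LHCB4.1. Their log2 differences lay between -0.20 and 0.29, and the calls of LHCB1.3, RBCS1A, LHB1B2, TGG1 and LHCB4.1 were lost when 1 library was left out. The summed level of the photosynthesis list was 97558 to 104107 CPM in the rdd regular libraries and 103081 to 104321 CPM in the Col-0 YC4-R4 libraries.

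Clock genes showed no common direction. Of 8 morning genes 2 were called higher and 4 lower (median -0.37), and of 8 evening genes 3 were higher and 3 lower (median 0.08), 75% called in each list beside 37.0% of all tested genes. LNK1 was at 14.1, 11.1 and 12.7 CPM against 26.8, 25.7 and 27.6 CPM (-1.09 ± 0.08), and it overlaps AT5G64160. CCA1 was lower (-0.67 ± 0.08), whereas RVE4 was higher (0.22 ± 0.05) and LHY was not called (0.21 ± 0.10). In the evening set PRR5 was higher (0.45 ± 0.05), and ELF4 (-0.59 ± 0.06) and PRR3 (-0.38 ± 0.06) were lower. The labels give no hour of harvest, so its part in these differences was not tested.

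Growth genes were mixed as well. Of 11 cell wall members 3 were called higher and 6 lower (median -0.25), 81.8% called beside 37.0% of all tested genes. The xyloglucan enzyme XTH4 was at 564, 552 and 563 CPM against 362, 360 and 361 CPM (0.63 ± 0.04), whereas the expansins EXPA5 (-0.92 ± 0.06) and EXPA10 (-0.76 ± 0.07) were lower. Of 11 auxin members 3 were called higher and 3 lower (median 0.12), 54.5% called. The auxin carrier PIN3 (0.43 ± 0.05), the repressor IAA2 (0.42 ± 0.05) and the conjugating enzyme GH3.5 (0.71 ± 0.10) were higher, and IAA6 (-0.66 ± 0.13) and IAA19 (-0.38 ± 0.09) lower.

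Of 14 tested iron genes 5 were called higher and 6 lower (median -0.11), 78.6% called beside 37.0% of all tested genes. Without rdd regular library 2, 3 were called lower. The root iron transporter IRT1 was at 4.23, 3.88 and 3.41 CPM against 0.971, 1.12 and 0.822 CPM (1.97 ± 0.26), and the reductase FRO2 was higher (0.86 ± 0.19). The iron store ferritin FER1, which overlaps AT5G01595, was at 146, 136 and 139 CPM against 82.5, 88.0 and 85.7 CPM (0.71 ± 0.04). The factors BHLH39 (-2.18 ± 0.40) and BHLH100 (-2.04 ± 0.51), which low iron induces, were lower. BHLH39 was at 0.273, 0.262 and 0.275 CPM against 1.23, 1.37 and 1.14 CPM.

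Of 10 nitrate genes 4 were called higher and 3 lower (median 0.18), 70% called beside 37.0% of all tested genes. The nitrogen-induced repressors LBD38 (0.82 ± 0.05) and LBD39 (0.74 ± 0.05) were higher and nitrite reductase NIR1 was lower (-0.38 ± 0.04). LBD38 was at 72.3, 69.2 and 72.5 CPM against 40.5, 41.9 and 39.1 CPM. Of 11 phosphate starvation genes 4 were lower and none higher (median -0.26), 36.4% beside 37.0% of all tested genes. They included the sulfolipid gene SQD1 (-0.28 ± 0.05), the phosphatase PAP17 (-0.83 ± 0.16) and the transporter PHT1;1 (-0.26 ± 0.07), whose call was lost without Col-0 YC4-R4 library 1.

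Genes of the methylation machinery list, which holds factors of demethylation as well as genes that set DNA methylation, were mostly not called. Of 19 tested members of this list 1 was higher and 2 lower, 15.8% beside 37.0% of all tested genes, with a median of -0.00. MBD7, a methyl-binding protein of the demethylation pathway, was higher (0.55 ± 0.10), and AGO4 of RNA-directed methylation (-0.24 ± 0.05) and the methyltransferase CMT3 (-0.15 ± 0.06) were lower. The CMT3 call was lost when any 1 of 5 of the 6 libraries was left out. Of 6 loci known to respond to methylation 4 were tested and 3 called higher, with a median of 1.74. QQS and EPF2 are given above, ALN was higher (0.23 ± 0.06) and RMG1 was not called (-0.24 ± 0.37).

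Markers of other organs bear on whole plants, whose makeup can vary. Of 14 tested root markers 7 were called higher and 2 lower, 64.3% called beside 37.0% of all tested genes, with a median of 0.44, but their summed level was 1149 to 1200 CPM in the rdd regular libraries and 1193 to 1208 CPM in the Col-0 YC4-R4 libraries. The sum is carried by PYK10, an abundant root and seedling glucosidase, which was at -0.12 ± 0.03. The tonoplast channel TIP2;3 was higher (0.65 ± 0.05), as were the root triterpene gene THAD1 (0.44 ± 0.08) and the Casparian strip gene CASP1 (0.52 ± 0.09). The part of root tissue in the iron and sulfur results was not tested. Of 8 floral markers only SEP1 and SEP3 passed the filter, neither was called, and the summed level of the list was below 3 CPM in all 6 libraries.

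**Figure D4:**
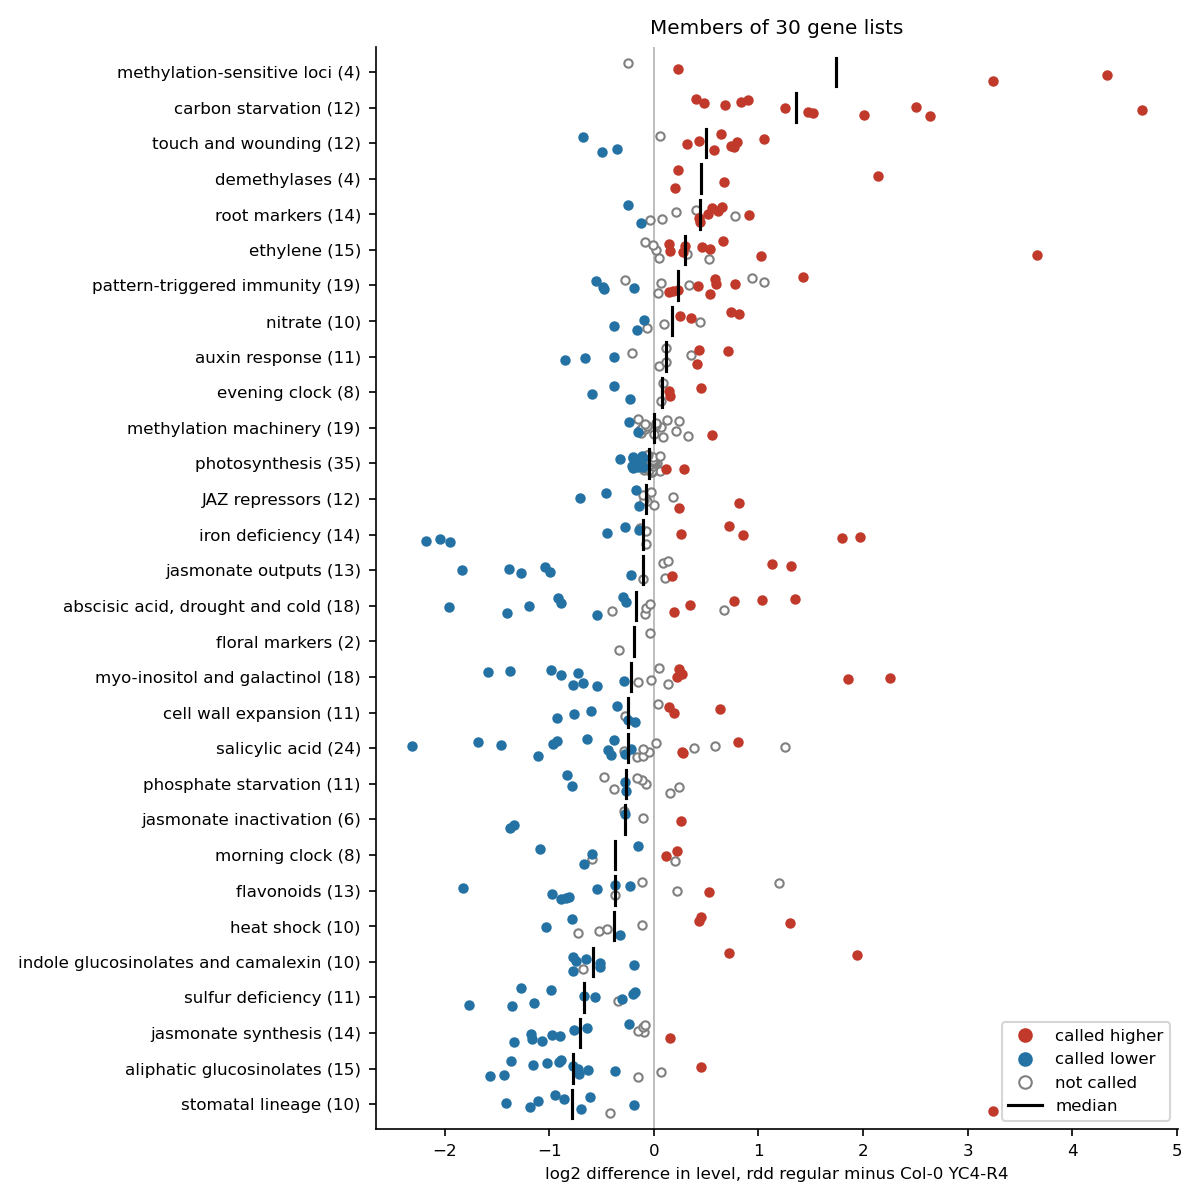
Log2 difference in level (horizontal axis, rdd regular minus Col-0 YC4-R4) of every tested member of 30 gene lists, ordered by list median (black bars), with the number tested in brackets; red and blue points were called and open points were not. All 12 carbon starvation genes lie to the right of 0, and 8 of 10 stomatal lineage, 12 of 15 aliphatic glucosinolate and 9 of 14 jasmonate synthesis genes were called to the left.

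The other 6 libraries hold the opposite pairing of labels, rdd YC4-R4 minus Col-0 regular, and share no library with the comparison above. A gene with the same sign in both is said here to follow the genotype label, and one with opposite signs the soil label. The signs show only which label went with the larger difference over the 4 groups. A gene can differ by both labels, as CSLA01 did. In those libraries 8155 genes (39.5%) were called, 3823 higher (18.5%) and 4332 lower (21.0%). Of the 3864 genes higher in rdd regular than in Col-0 YC4-R4, 1366 were also higher there, 35.4% of the first list and 35.7% of the second. Another 816 were lower there, 21.1% of the first list and 18.8% of the second, and 1682 were not called. Of the 3781 lower genes, 1594 were lower in both, 42.2% of the first list and 36.8% of the second. A further 452 were higher there, 11.95% of the first list and 11.8% of the second, and 1735 were not called.

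Among genes that differed at least 2-fold the balance was another one. Of 484 higher genes 97 (20.04%) kept their direction in the other 6 libraries, 175 (36.2%) took the opposite one and 212 were not called. Of 296 lower genes 111 (37.5%) kept their direction, 59 (19.9%) took the opposite one and 126 were not called. MIOX2 (1.38 ± 0.07), ERD5 (1.57 ± 0.04), DIN10 (0.74 ± 0.03) and PYL5 (0.96 ± 0.06) were higher with the rdd label in both. MIPS1 (-0.81 ± 0.04), P5CS1 (-0.93 ± 0.04), MYB29 (-0.70 ± 0.09), SOT16 (-1.16 ± 0.04) and LOX3 (-1.59 ± 0.05) were lower with it in both.

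LOX2 (0.34 ± 0.04), CORI3 (0.59 ± 0.05), VSP1 (1.03 ± 0.07), PR2 (2.25 ± 0.12) and PR5 (1.66 ± 0.13) took the opposite sign and so were higher with the YC4-R4 label in both comparisons. SEN1, called in the first comparison, was at -0.04 ± 0.05 in the second (edgeR, Benjamini-Hochberg adjusted p = 0.59). The difference between the comparisons was not tested here. Several immunity genes were far lower in the other 6 libraries, with PHI1 at -3.92 ± 0.06, WRKY33 at -3.08 ± 0.07 and WRKY40 at -2.82 ± 0.07 in rdd YC4-R4 minus Col-0 regular.

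**Figure D5:**
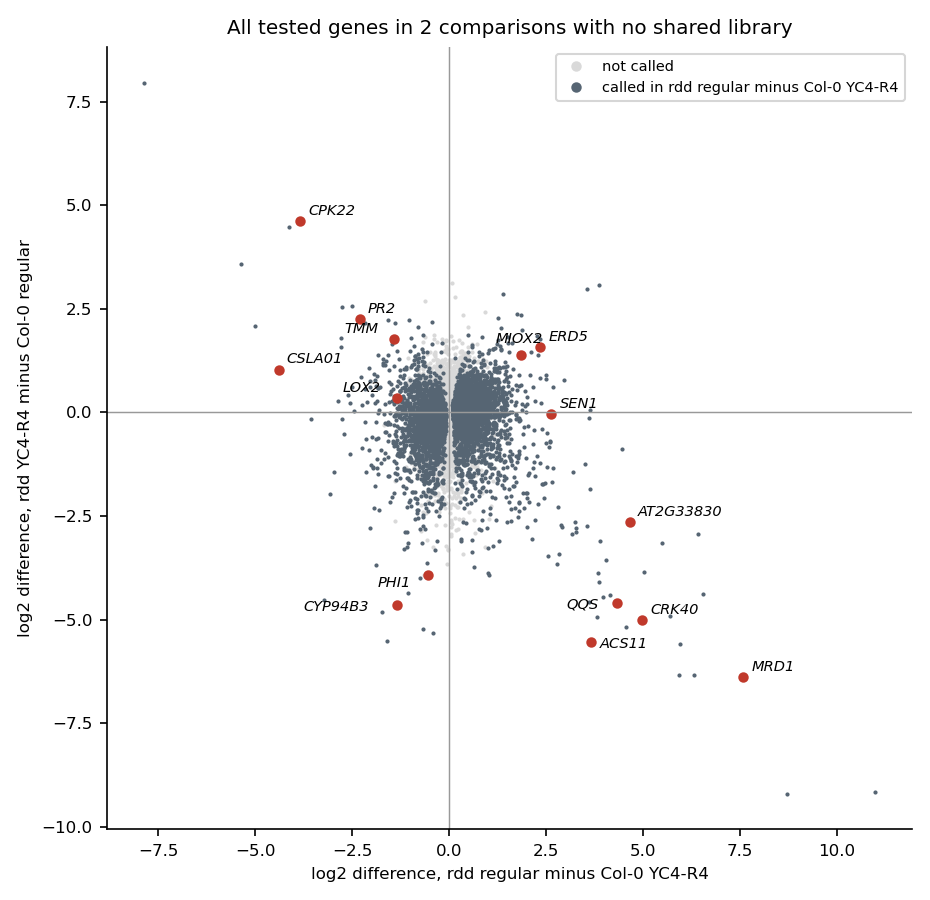
Log2 difference of each tested gene in rdd regular minus Col-0 YC4-R4 (horizontal axis) and in rdd YC4-R4 minus Col-0 regular (vertical axis); dark points were called in the first, red points are named genes, and positions of genes with no count in a group depend on the prior count. MIOX2 and ERD5 lie at upper right, following the genotype label, while MRD1, CRK40 and ACS11 lie at lower right and CPK22 and PR2 at upper left, following the soil label.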

How the data were processed

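RNA came from whole plants by RNeasy extraction, and a directional NEBNext kit turned 1 µg of it into each library, per the labels. The authors deposited raw read counts for every gene in a table with a column for each library. The submitters' processing notes name Trimmomatic 0.36, HISAT2 2.1.0, HTSeq 0.9.1 and the TAIR10 build. Which strand was counted, and which annotation release was used, is not given in the sources used here, so genes that overlap another gene are uncertain. Of 202 genes named in the text 32 overlap another tested gene, among them NPR1, MYC2, F3H, SOT18, POLAR, GDH1, ERS1, CASP1, PYK10, PAP17 and GOLS4, for which the text gives no mark.

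Libraries were grouped by their labels. Counts were analysed as deposited with edgeR 4.0.16 in R 4.3.3. filterByExpr with 4 groups kept 20651 of 33602 genes, holding 99.96% of the counts. All 12 libraries entered a quasi-likelihood fit with TMM factors and a mean for each group, and p-values were Benjamini-Hochberg adjusted over all tested genes and called under 0.05. The standard error was the size of the log2 difference divided by the square root of F. The members and the gene lists were chosen with earlier results of these data known, so a list's count is a description. Of 417 list entries 405 matched a locus by symbol in the TAIR10.1 annotation of RefSeq, which also gave coordinates and promoters, and 12 were not matched.

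Genes were named by rule: ROS1, DML2 and DML3, the 15 highest and 15 lowest called differences with an average log2 CPM of at least 1 and no overlap between the groups, the 3 members of each list with the smallest adjusted p, other list members, and the 10 called genes with the highest mean CPM. Replicates were compared, and every pair in these groups differed by more than counting noise (chi-square per degree of freedom 1.61 to 2.25). On simulated data for this comparison, where 20499 genes entered the fit and each fold size was given to 50 of them, recovery was 40% for 1.2-fold changes, 80% for 1.5-fold, 98% for 2-fold and 100% for 4-fold. Of unchanged genes 0.0838% were called. The changed genes all had an average log2 CPM of at least 1. They were a far smaller share than the 37.0% of genes called in the data, so these rates may not carry over. Alternatives were RLE and upper-quartile normalization, no filter, a minimum of 10 counts, a fit of the 6 libraries alone, a replicate block, a test against a 1.5-fold change, DESeq2 1.42.0 and leaving out each library.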

Additional observations from a re-analysis of the deposited data

How the results depend on the processing

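The count of called genes, 7645, was 6572 with DESeq2 and 6525 to 6911 when 1 of the 6 libraries was left out (3247 to 3509 higher and 3244 to 3402 lower). Fitting only the 6 libraries compared gave 8269 called genes. In rdd YC4-R4 against Col-0 regular the count went from 8155 to 7511 when only its own 6 libraries were fitted. Leaving out 1 library gave 472 to 505 genes called and 2-fold higher and 287 to 312 called and 2-fold lower. Called list members then numbered 227 to 242, not all of them among the 251 of the main fit. In rdd YC4-R4 against Col-0 regular 7011 to 7910 genes were called. Tested against a 1.5-fold change, 775 genes were called, 455 higher and 320 lower, with 322 of them 2-fold higher, as were 80 list members and 1164 genes in rdd YC4-R4 against Col-0 regular. With at least 10 counts in all 6 libraries, 291 genes were called and 2-fold higher and 183 lower, since genes near absent in a group are then left out.

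Replicate numbers did not pair the samples: the deviations of same-numbered libraries correlated at -0.009 to 0.020. With a replicate block 7538 genes were called and 8044 in rdd YC4-R4 against Col-0 regular, with no named call lost.

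The minimum-count filter removed some named genes before testing, among them AT4G17450, MRD1, DML3 and QQS. For the removed genes it cannot show whether the call holds, and they were not counted as lost. Under the 1.5-fold test 89 of 190 called genes named in the text lost their call. Under every other alternative that tested them, 182 of the 190 kept it. The exceptions, lost in at least 1 fit without a library, were CMT3 (also lost with DESeq2), LHCB1.3, RBCS1A, LHB1B2, TGG1, LHCB4.1, LOX6 and PHT1;1. RMG1, not called, ranged from -0.71 to 0.060 when 1 library was left out, above 0 without rdd regular library 2. SEP3, not called, changed sign to 0.0059 with the replicate block, and ranged from -0.20 to 0.22 when 1 library was left out, above 0 without rdd regular library 2 or Col-0 YC4-R4 library 1. Apart from the 1.5-fold test, list counts moved by over 1.5 times mostly where 3 or fewer genes were called. Iron genes called lower went from 6 to 3 without rdd regular library 2, and without Col-0 YC4-R4 library 1 JAZ genes called lower went from 4 to 2 and phosphate genes from 4 to 2. Without rdd regular library 1 an ethylene gene was called lower. The causes were not tested.

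Depth limits genes below about 1 CPM, such as BHLH39, CYP71A13 and PR1. The floor used for AT4G17450 covers counting error only, whereas the standard errors include the spread between replicates. If the rdd mutations lower their counts, which was not tested, DML3, DML2 and ROS1 went against the genotype labels in this comparison. They then went with those labels in the other 6 libraries.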
